A study of Mus musculus with 20 samples.

Results

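Hepatic gene expression in mice given a single molecule that joins glucagon to T3 was compared with that in mice given T3 (triiodothyronine, the active thyroid hormone) alone. The comparison uses all 8 libraries with these 2 treatment labels, 4 hybrid and 4 T3, of the 20 in the series. All 20 are RNA-seq libraries from livers of individual male mice that ate a western diet and were treated every day for 16 days. The groups are hybrid (labelled Cp, taken as the hybrid by elimination), T3, glucagon and T3 given together (labelled Gluc+T3, called combination here), glucagon (Gluc) and control, with 4 mice each. The sources used here state neither doses nor strain, age, vehicle or hour of tissue collection, so hybrid and T3 cannot be matched for dose. The comparison asks which liver transcripts differ when T3 is given joined to glucagon rather than alone.

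Glucagon binds a receptor on hepatocytes that raises cyclic AMP, which activates protein kinase A and the transcription factor CREB. In liver this route is known for switching on glucose production and the breakdown of amino acids. T3 enters hepatocytes through transporters and binds nuclear receptors, chiefly the beta form, on the DNA of its target genes, and it is known for raising lipid turnover and energy use.

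The hybrid libraries held 17445035, 15761916, 9901678 and 8791923 counts over 13319 gene symbols, and the T3 libraries held 7996156, 7048990, 6949921 and 6091917. Each hybrid replicate ran in its own lane (1 to 4), while the T3 libraries shared lane 5 with no other group, so lane and treatment cannot be told apart in any value below. Albumin and the other hepatocyte markers were abundant in all 8 libraries, with 23 markers summing to 131651 to 167543 CPM (counts scaled to one common library total) in hybrid and 146235 to 171131 CPM in T3 livers. Libraries with transcripts of other tissues stood apart. Skeletal muscle markers summed to 802 CPM in hybrid 4, against 13.9 to 25.6 CPM in the other hybrid and 21.6 to 78.0 CPM in the T3 libraries. T3 3 held 16.5 CPM of Ucp1 and 8.35 CPM of Plin1, genes of brown and all fat cells, against at most 0.796 and 1.71 CPM in the other 7 libraries. After TMM normalisation it also held 83.4 CPM of Star and 30.2 CPM of Cyp21a1, genes of steroid synthesis in the adrenal gland, against at most 2.45 and 0.933 CPM in the other 7. Both libraries were kept, and counts without them are given beside the results they move. In whole liver, fewer cells of a type and less RNA per cell cannot be told apart.

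Of 12907 genes tested, 821 (6.36%) differed between hybrid and T3 livers by edgeR's quasi-likelihood test (adjusted p under 0.05), and such genes are said below to have risen or fallen in the hybrid. They comprised 476 that rose (3.69%) and 345 that fell (2.67%). The change exceeded 1 on the log2 scale in 179 of those that rose and 153 of those that fell, and 2 in 50 and 22. The 4 hybrid libraries did not overlap the 4 T3 libraries in 769 of the called genes and in 2381 (18.4%) of all tested genes. For 8335 genes (64.6%) the 95% interval of the change lay within 1 log2 unit of 0, and for 1856 (14.4%) within 0.5, so smaller differences were mostly not resolved with 4 mice a group. A fit of these 8 libraries alone, called the 8-library fit below, called 1562 of 12000 genes (13%), and DESeq2 called 1175 of 12907 (9.1%). DESeq2 gave no adjusted p for 97 genes, which are counted throughout as not called by it. Without hybrid 4 and T3 3, 560 genes were called, 505 of them among the 821. With 1 library left out at a time the count ran from 406, without hybrid 2, to 708, without hybrid 4. It was also over 1.5 times smaller without hybrid 3, T3 1, T3 2 or T3 4, at 468, 415, 476 and 541. Changes below are log2 ± SE, hybrid minus T3, and levels are CPM normalised to library size with TMM factors.

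**Figure D1:**
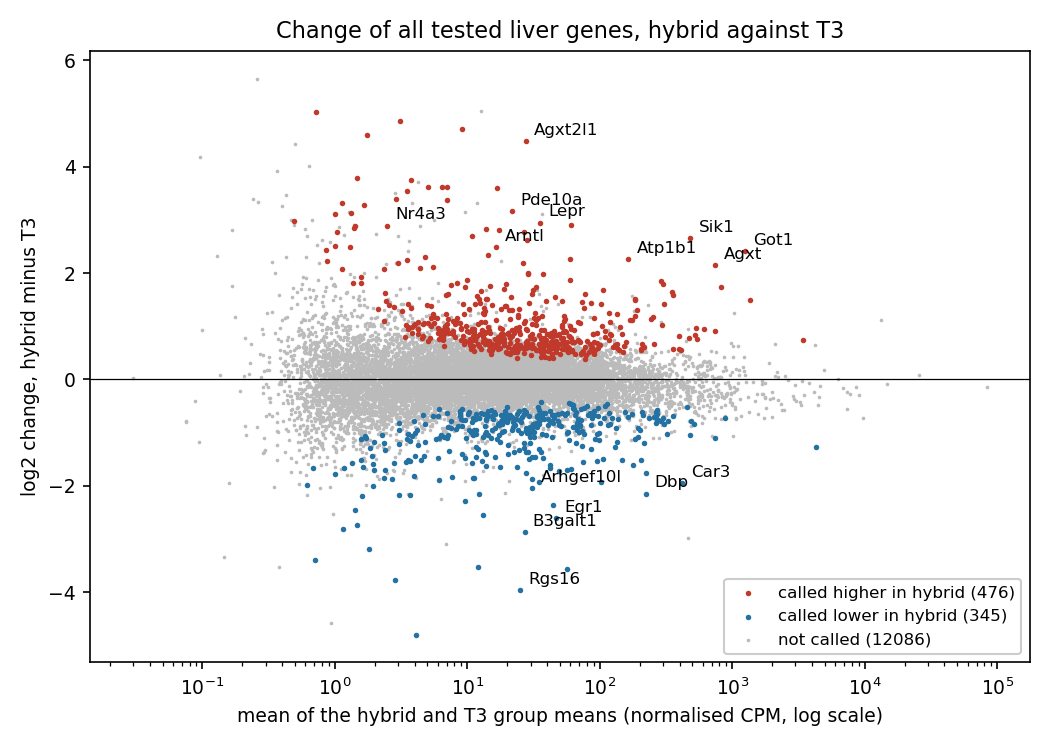
Log2 change (hybrid minus T3, vertical axis) of 12907 genes against the mean of both group means in normalised CPM (log scale). Red points are the 476 genes called higher in the hybrid, blue points the 345 called lower and grey points the rest; Agxt2l1, at 4.48, and Rgs16, at -3.96, are the highest and lowest of the genes labelled.

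Early targets of the cAMP-CREB pathway included several of the largest rises. Of 27 measured members of this list 7 rose and 1 fell, 29.6% of the list, with a median change of 0.28 against -0.0018 for all tested genes. The counts of this and the other lists are to be read against the 6.36% of all tested genes that were called, 3.69% higher and 2.67% lower. The rises were Sik1, Ppargc1a, Nr4a2, Crem, Nr4a3, Pde10a and Pde7b, and the fall was Egr1. The list's count of rises was 8 without hybrid 4 and T3 3, and 7 or 8 with any 1 library left out. Sik1 (GRCm38 chr17:31844250-31855804), a salt-inducible kinase that restrains CREB coactivators, had 795, 663, 791 and 1078 CPM in hybrid livers, against 76.6, 156, 153 and 144 CPM in T3 livers. All hybrid livers lay far above the T3 livers (2.65 ± 0.31, edgeR adjusted p = 3.79e-05). Nr4a3 (chr4:48045153-48086447), an orphan nuclear receptor, had 3.81, 5.42, 5.14 and 3.17 CPM in hybrid livers, against 1.1, 0.262, 0.59 and 0.32 CPM in T3 livers. It was low in both groups but without overlap (2.89 ± 0.45, edgeR adjusted p = 0.000633), and its mean level was 5.01 CPM in combination, 158 CPM in glucagon and 0.433 CPM in control livers. The related receptor Nr4a2 had 5.22, 5.37, 7.13 and 5.41 CPM in hybrid livers, against 1.35, 1.44, 1.3 and 0.639 CPM in T3 livers, again with no overlap (2.25 ± 0.30, edgeR adjusted p = 0.000131).

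Nr4a1, the third member of that receptor family, had 6.91, 13.4, 5.5 and 7.19 CPM in hybrid livers, against 9.93, 8.26, 14.6 and 6.07 CPM in T3 livers. The groups overlapped and it was not called (-0.24 ± 0.35, edgeR adjusted p = 0.741, 95% interval -0.96 to 0.49), while its mean was 133 CPM in glucagon livers. Crem, a cAMP-responsive transcription factor whose short form represses the same targets, had 25, 34.3, 17.7 and 18.9 CPM in hybrid livers, against 3.56, 3.01, 5.66 and 6.87 CPM in T3 livers. Its hybrid values were all higher (2.34 ± 0.35, edgeR adjusted p = 0.000395). Ppargc1a, the coactivator of gluconeogenic and mitochondrial genes, had 18, 25.5, 19.5 and 18.7 CPM in hybrid livers, against 9.07, 6.16, 5.19 and 8.47 CPM in T3 livers. Again all hybrid values were higher (1.50 ± 0.19, edgeR adjusted p = 0.000111), with 14.1 CPM in combination, 178 CPM in glucagon and 10.8 CPM in control livers.

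Of the 4 phosphodiesterases in the list, which break down cyclic nucleotides, Pde10a and Pde7b rose. Pde10a (chr17:8525372-8986648) had 28.5, 51, 27.1 and 49.9 CPM in hybrid livers, against 2.94, 5.64, 6.02 and 2.72 CPM in T3 livers. All hybrid livers lay far above the T3 livers. Its change was 3.16 ± 0.57, edgeR adjusted p = 0.00207, with 9.78 CPM in combination, 24.2 CPM in glucagon and 4.49 CPM in control livers. Pde7b had 6.8, 13.9, 8.21 and 12.4 CPM in hybrid livers, against 3.07, 3.93, 2.95 and 3.84 CPM in T3 livers, with the hybrid livers all higher (1.58 ± 0.30, edgeR adjusted p = 0.00332). Pde4d, another cAMP-degrading enzyme, had 14.1, 12.7, 7.76 and 9.52 CPM in hybrid livers, against 11.9, 7.34, 9.44 and 7.67 CPM in T3 livers. These values overlapped and the gene was not called (0.28 ± 0.22, edgeR adjusted p = 0.477, 95% interval -0.17 to 0.73). Egr1, an immediate early transcription factor, had 11, 18.8, 13.8 and 9.33 CPM in hybrid livers, against 165, 85.7, 32 and 40.6 CPM in T3 livers. All hybrid livers lay below the T3 livers, which spread widely (-2.60 ± 0.74, edgeR adjusted p = 0.0403). The Egr1 call was lost without hybrid 1, hybrid 2, hybrid 3, hybrid 4, T3 1 or T3 2 (edgeR adjusted p 0.0805 to 0.156) and with hybrid 4 and T3 3 both left out (adjusted p = 0.0774), and its change was -1.99 without T3 1.

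**Figure D2:**
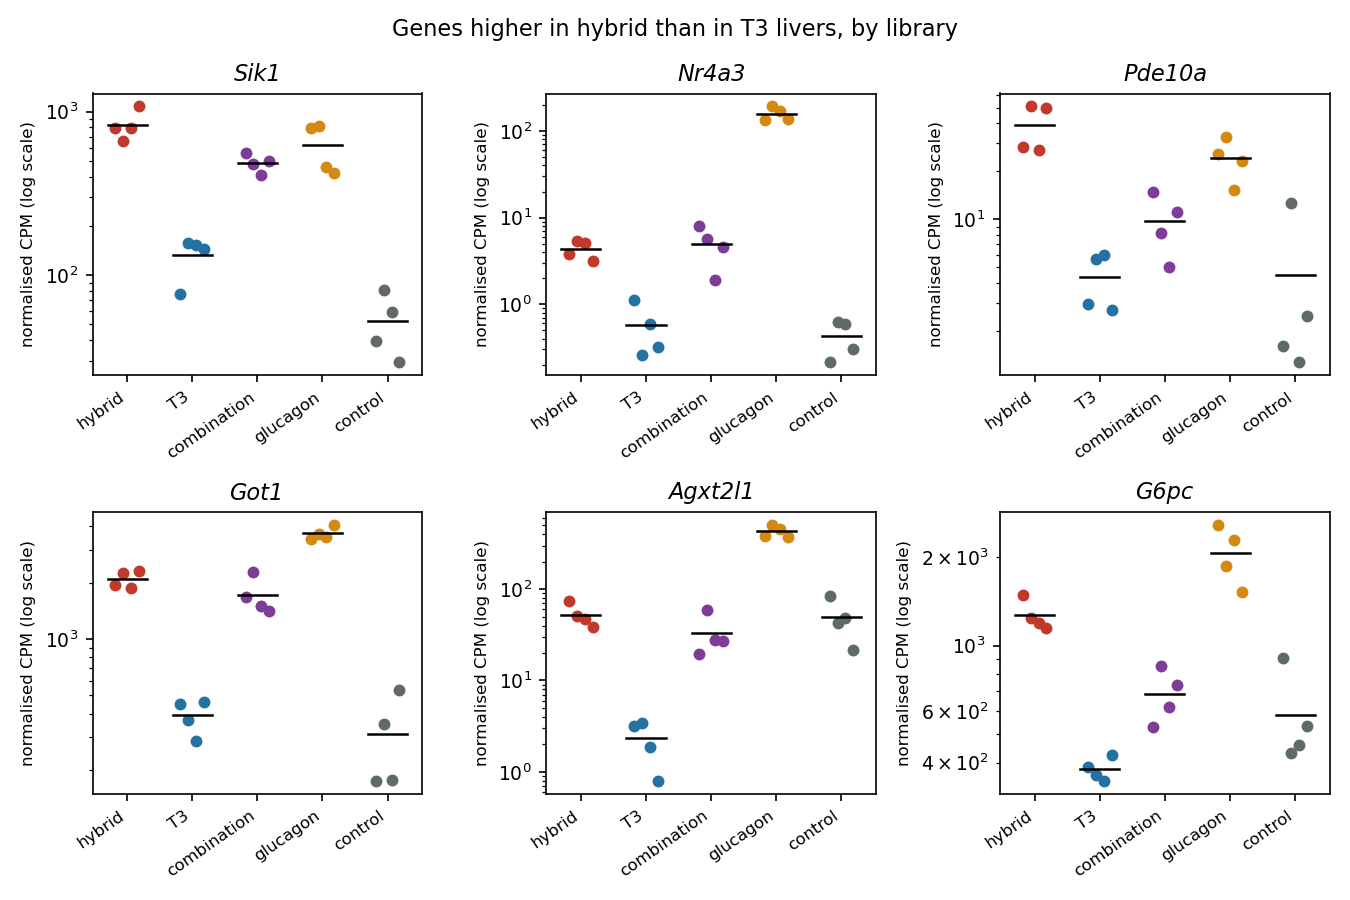
Normalised CPM (log scale) of 6 genes in each of the 20 libraries, grouped as hybrid, T3, combination, glucagon and control, with points for libraries and bars for group means. All 4 hybrid points lie above all 4 T3 points in each panel; Nr4a3 averages 4.39 CPM in hybrid, 0.569 CPM in T3 and 158 CPM in glucagon livers.

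The promoter letters of cAMP-CREB members are shown because 7 of them rose together. Windows of 250 bases before the RefSeq start (GRCm38.p6) were searched on both strands for TGACG, the short form of the CREB site, which the full element TGACGTCA also contains. Among the 8 called members, Crem and Egr1 were left out of this count because of the chromosome they lie on, window or not. Of the rest 5 had a window, and Nr4a2, Nr4a3 and Ppargc1a held TGACG, in capitals below (CGTCA is TGACG on the other strand). How many of all 8 have a window or hold TGACG is therefore not given. Bases inside a GENCODE transcript of the gene are left off, and GENCODE lists further starts of Nr4a2 and Ppargc1a downstream of these windows.
Nr4a2, chr2:57124004-57124253, minus strand: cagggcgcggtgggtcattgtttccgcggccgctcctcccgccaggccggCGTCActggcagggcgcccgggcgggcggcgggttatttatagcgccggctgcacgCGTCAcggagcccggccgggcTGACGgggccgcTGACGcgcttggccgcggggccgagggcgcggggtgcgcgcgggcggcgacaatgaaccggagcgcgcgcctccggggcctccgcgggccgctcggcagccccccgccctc
Nr4a3, chr4:48045055-48045152, plus strand: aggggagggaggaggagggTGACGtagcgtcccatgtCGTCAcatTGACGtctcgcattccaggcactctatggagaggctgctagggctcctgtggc
Ppargc1a, chr5:51567727-51567975, minus strand: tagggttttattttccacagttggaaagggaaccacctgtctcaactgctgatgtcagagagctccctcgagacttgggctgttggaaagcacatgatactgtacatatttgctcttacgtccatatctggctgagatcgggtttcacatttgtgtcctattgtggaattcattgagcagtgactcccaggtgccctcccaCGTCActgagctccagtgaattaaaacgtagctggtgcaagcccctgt
TGACG was present in 35.7% of 356 windows of genes that rose, 23% of 248 windows of genes that fell and 29.8% of 9253 windows of all tested genes. In the cAMP-CREB list it was present in 15 of 22 windows (68.2%), members that were not called included and no chromosome left out. TGACGTCA was present in 3.37%, 1.21% and 2.93% of the same 3 sets. A match is a string of letters and no evidence of binding.

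In the list of glucagon receptor signalling, which holds the receptor, the chain below it and Rgs16, 1 of 27 members rose and 3 fell (14.8%, median change -0.003). DESeq2 and the 8-library fit called 2 risen. Gcgr, the glucagon receptor, had 242, 145, 225 and 245 CPM in hybrid livers, against 528, 417, 333 and 455 CPM in T3 livers. All hybrid values were lower (-1.02 ± 0.23, edgeR adjusted p = 0.0103), with 331 CPM in combination, 281 CPM in glucagon and 349 CPM in control livers. Adcy1, an adenylyl cyclase that makes cAMP, had 8.65, 6.63, 5.5 and 7.47 CPM in hybrid livers, against 1.23, 1.18, 1.3 and 3.04 CPM in T3 livers, and the hybrid livers were all higher (2.10 ± 0.35, edgeR adjusted p = 0.00108). Rgs16 (chr1:153740349-153745468), which speeds the switching off of G proteins, had 8.21, 0.767, 0.992 and 1.68 CPM in hybrid livers, against 94.9, 40.4, 30.2 and 24.3 CPM in T3 livers. The fall was the largest among the ranked genes of at least 20 CPM (-3.96 ± 0.83, edgeR adjusted p = 0.00701), though hybrid 1 stood above the other hybrid livers. Rgs16 averaged 76.5 CPM in combination, 5.22 CPM in glucagon and 142 CPM in control livers. Its change was -5.41 without hybrid 1 and -3.38 without T3 1. Pkig, an inhibitor of protein kinase A, had 12, 9.86, 13.2 and 16.9 CPM in hybrid livers, against 33.2, 31.2, 15.7 and 20.5 CPM in T3 livers, with overlap between the groups (-0.96 ± 0.28, edgeR adjusted p = 0.0483). Its call was lost without hybrid 1, hybrid 2, hybrid 3, T3 1, T3 2 or T3 4 (edgeR adjusted p 0.0615 to 0.167), and with libraries thinned to the shallowest total (adjusted p = 0.0638).

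Of 47 measured genes of amino acid breakdown and the urea cycle 13 rose and 1 fell (29.8%, median change 0.26), and 8 rose when hybrid 4 and T3 3 were left out. With 1 library left out at a time 10 to 15 rose, and the 8-library fit called 3 fallen. The change was positive in 29 of the 47 and negative in 18, called or not. Got1 (chr19:43499752-43524605), the cytosolic aspartate aminotransferase, had 1958, 2245, 1870.0 and 2302 CPM in hybrid livers, against 452, 372, 287 and 461 CPM in T3 livers. Each hybrid value was more than 4 times the highest T3 value (2.41 ± 0.29, edgeR adjusted p = 5.26e-05). Got1 averaged 1715 CPM in combination, 3669 CPM in glucagon and 311 CPM in control livers. Agxt, the alanine-glyoxylate aminotransferase, had 845, 1058, 1528 and 1433 CPM in hybrid livers, against 234, 343, 161 and 356 CPM in T3 livers, with no overlap (2.15 ± 0.29, edgeR adjusted p = 0.000176).

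Only part of the urea cycle proper was called. Slc25a15, Asl and Nags rose, while Otc, Ass1, Arg1 and the carrier Slc25a13, also in the list, were not called. Slc25a15, which carries ornithine into mitochondria, had 538, 482, 449.6 and 383 CPM in hybrid livers, against 114, 152, 109 and 162 CPM in T3 livers. There was no overlap, with the hybrid higher (1.79 ± 0.18, edgeR adjusted p = 6.64e-06). Asl, argininosuccinate lyase, had 795, 560.4, 685 and 703 CPM in hybrid livers, against 379.5, 405, 357 and 471 CPM in T3 livers, also without overlap (0.77 ± 0.18, edgeR adjusted p = 0.0154). Nags, which makes the activator of the first enzyme of the cycle, had 141, 153, 162 and 152 CPM in hybrid livers, against 98.7, 108, 87.8 and 105 CPM in T3 livers. These did not overlap either (0.60 ± 0.15, edgeR adjusted p = 0.0239). Cps1, that first enzyme, had 3152, 2578, 2841 and 1806 CPM in hybrid livers, against 1441, 1735, 1310.0 and 2044 CPM in T3 livers and was not called (0.67 ± 0.21, edgeR adjusted p = 0.062), but it was called without hybrid 4 (edgeR adjusted p = 0.0295) and in DESeq2 (adjusted p = 0.0217). The Asl call was lost without hybrid 1 or T3 1 (edgeR adjusted p 0.0501 to 0.0543) and with hybrid 4 and T3 3 both left out (adjusted p = 0.073). The Nags call was lost without hybrid 2, hybrid 3, T3 1 or T3 3 (edgeR adjusted p 0.0572 to 0.0681) and with hybrid 4 and T3 3 both left out (adjusted p = 0.0874).

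Other rises were spread over several amino acids. Aass, which begins lysine breakdown, had 633, 647, 479 and 373 CPM in hybrid livers, against 146, 171, 124 and 243 CPM in T3 livers, with no overlap (1.64 ± 0.26, edgeR adjusted p = 0.000797). Cth, which releases cysteine from cystathionine, had 220.3, 291, 283 and 171 CPM in hybrid livers, against 86.8, 148, 76 and 135 CPM in T3 livers. Its T3 values were all lower than those of any of the other 16 libraries (1.12 ± 0.24, edgeR adjusted p = 0.00778). Sdsl, Cbs, Oat and Mat1a rose by 1.16 ± 0.26, 0.55 ± 0.13, 1.42 ± 0.36 and 0.74 ± 0.21, and Prodh2, of hydroxyproline breakdown, fell (-0.71 ± 0.21). The Sdsl call was lost with hybrid 4 and T3 3 both left out (adjusted p = 0.0655), and so was the Cbs call (adjusted p = 0.0864). The Oat call was lost without hybrid 1, hybrid 2, T3 1, T3 2, T3 3 or T3 4 (edgeR adjusted p 0.0513 to 0.0624) and with hybrid 4 and T3 3 both left out (adjusted p = 0.0943). The Mat1a call was lost without hybrid 1, hybrid 2, hybrid 3, T3 1, T3 2 or T3 3 (edgeR adjusted p 0.0811 to 0.129) and with hybrid 4 and T3 3 both left out (adjusted p = 0.0788). That of Prodh2 was lost without hybrid 1, hybrid 2, hybrid 3, hybrid 4, T3 1, T3 2 or T3 4 (edgeR adjusted p 0.0546 to 0.169) and with hybrid 4 and T3 3 both left out (adjusted p = 0.0793). It was also lost with libraries thinned to the shallowest total (edgeR adjusted p = 0.0564). Tat, tyrosine aminotransferase and a classical cAMP target, had 1187, 1811, 1495 and 874 CPM in hybrid livers, against 669, 978, 940.2 and 869 CPM in T3 livers. It was not called (0.63 ± 0.21, edgeR adjusted p = 0.0775), but was called without hybrid 4 (edgeR adjusted p = 0.0275), in DESeq2 (adjusted p = 0.0335) and with hybrid 4 and T3 3 both left out (adjusted p = 0.041).

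Agxt2l1 (also Etnppl) had the largest rise among the ranked genes of at least 20 CPM, and although it was listed with the aminotransferases it encodes the enzyme that breaks down phosphoethanolamine. It had 74.3, 50.6, 47.3 and 38.8 CPM in hybrid livers, against 3.19, 3.41, 1.89 and 0.799 CPM in T3 livers. The T3 livers lay below all 16 other libraries (4.48 ± 0.45, edgeR adjusted p = 6.64e-06). Its mean was 33.5 CPM in combination, 430.5 CPM in glucagon and 49.5 CPM in control livers, so the hybrid mean was near that of control livers.

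Among amino acid transporters 4 of 22 members had risen and 1 had fallen (22.7%, median change 0.13). The count of falls was 0 without hybrid 2, hybrid 3, hybrid 4, T3 1, T3 2 or T3 4, 0 without hybrid 4 and T3 3, and 3 in the 8-library fit. Slc16a10, a transporter of aromatic amino acids that also carries T3, had 360.0, 425, 428 and 382 CPM in hybrid livers, against 176, 185, 204 and 218 CPM in T3 livers. All hybrid values were higher (1.03 ± 0.17, edgeR adjusted p = 0.000989). Slc25a22, the mitochondrial glutamate carrier, had 2388, 1763, 2028 and 1841 CPM in hybrid livers, against 796, 748, 545 and 748 CPM in T3 livers, with no overlap (1.50 ± 0.27, edgeR adjusted p = 0.00211). Slc3a2, the shared heavy chain of several amino acid exchangers, had 172, 186, 142 and 146 CPM in hybrid livers, against 79.2, 67.2, 94.1 and 63.1 CPM in T3 livers. It rose without overlap (1.09 ± 0.24, edgeR adjusted p = 0.0103). Slc7a2, a carrier of arginine and lysine, had 741, 474, 612 and 554 CPM in hybrid livers, against 391, 298, 307 and 384 CPM in T3 livers, and its T3 livers were below the other 16 libraries (0.79 ± 0.19, edgeR adjusted p = 0.0145). The Slc7a2 call was lost without hybrid 1 or T3 2 (edgeR adjusted p 0.0543 to 0.0562) and with hybrid 4 and T3 3 both left out (adjusted p = 0.0558).

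In the gluconeogenesis list 4 of 27 members rose and 1 fell (18.5%, median change 0.19). DESeq2 called 4 fallen, the 8-library fit 5 and the fit without control 2 and glucagon 3 called 3, while 2 fell without hybrid 4 and 0 without hybrid 1, hybrid 2, hybrid 3, T3 1 or T3 4. G6pc (chr11:101367561-101377903), glucose-6-phosphatase, which frees glucose for export, had 1485, 1237, 1196 and 1144 CPM in hybrid livers, against 388, 364, 347 and 424 CPM in T3 livers. Hybrid values were all higher, and the T3 livers were below the other 16 libraries (1.73 ± 0.23, edgeR adjusted p = 0.000128). Pck1, the rate-controlling enzyme of gluconeogenesis, had 2635, 2156, 1892 and 1746 CPM in hybrid livers, against 1330.2, 1869, 1478 and 2095 CPM in T3 livers. Here the groups overlapped and no call was made (0.32 ± 0.27, edgeR adjusted p = 0.54, 95% interval -0.26 to 0.89), while the mean was 5763 CPM in glucagon livers. Slc16a1, a lactate carrier, rose by 0.65 ± 0.17 and Aqp9, the glycerol channel, fell (-0.68 ± 0.18). The call of Slc16a1 was lost without hybrid 2, hybrid 3, T3 1, T3 2 or T3 3 (edgeR adjusted p 0.0561 to 0.0893), and that of Aqp9 without hybrid 1, hybrid 2, hybrid 3, T3 1 or T3 4 (edgeR adjusted p 0.0569 to 0.112) and with hybrid 4 and T3 3 both left out (adjusted p = 0.0658).

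Of 26 genes of glycolysis and glycogen 1 rose and 2 fell (11.5%, median change -0.21), and 0 fell without hybrid 2, hybrid 3, T3 1 or T3 3, or with hybrid 4 and T3 3 both left out. It was 1 without hybrid 1, T3 2 or T3 4, 4 in DESeq2, 5 without control 2 and glucagon 3 and 6 in the 8-library fit, which called 3 risen. DESeq2 and the fit without hybrid 4 called 2 risen. Ppp1r3g, which targets a phosphatase to glycogen, had 29.2, 24.6, 22.7 and 19.9 CPM in hybrid livers, against 7.73, 1.7, 1.53 and 2.56 CPM in T3 livers. All hybrid values were higher, T3 1 stood above the other T3 livers, and the change (2.82 ± 0.51, edgeR adjusted p = 0.00228) became 3.66 without T3 1.

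Both groups received T3, and most of its known targets were not called. Of 37 members 6 rose and 0 fell (16.2%, median change -0.04), while 4 or 5 rose with any 1 library left out and DESeq2 called 8 risen. The count of 0 fallen became 4 in DESeq2 and in the 8-library fit, 3 without control 2 and glucagon 3, and 1 without T3 3, without hybrid 4 and T3 3, or with thinned libraries. Ppargc1a and Slc16a10 are shared with the lists above. Idh3a, a subunit of mitochondrial isocitrate dehydrogenase, had 189, 205, 188 and 169 CPM in hybrid livers, against 76.6, 101, 110.3 and 90.0 CPM in T3 livers. The hybrid livers were above all 16 other libraries (0.99 ± 0.16, edgeR adjusted p = 0.000633), and the mean was 163 CPM in combination, 46.1 CPM in glucagon and 34.3 CPM in control livers. Nrg4, a secreted growth factor of the epidermal growth factor family, had 92.6, 78.2, 53 and 49.6 CPM in hybrid livers, against 28.1, 17.4, 20.4 and 27.3 CPM in T3 livers, with no overlap (1.55 ± 0.30, edgeR adjusted p = 0.00371). Dio1, the deiodinase that is a standard liver marker of T3 action, had 506, 393, 395 and 301 CPM in hybrid livers, against 549, 433, 352 and 461 CPM in T3 livers. Its groups overlapped throughout (-0.17 ± 0.30, edgeR adjusted p = 0.786), the 95% interval was -0.80 to 0.46, and the mean was 473 CPM in combination, 131 CPM in glucagon and 105 CPM in control livers.

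Thrsp, a lipogenic T3 target, had 2392, 1283, 1925 and 1116 CPM in hybrid livers, against 2992, 2007, 2278 and 1389.6 CPM in T3 livers, with overlap and a wide interval (-0.37 ± 0.56, edgeR adjusted p = 0.749, -1.53 to 0.80). Klf9, a transcription factor induced by T3 in many tissues, had 66.6, 98.8, 95.9 and 60.5 CPM in hybrid livers, against 63.3, 87.6, 48.7 and 102 CPM in T3 livers, also overlapping (0.10 ± 0.26, edgeR adjusted p = 0.867, -0.45 to 0.64). Me1, malic enzyme, had 165, 127, 185 and 129.7 CPM in hybrid livers, against 94.7, 69.3, 109 and 48.3 CPM in T3 livers. The hybrid livers were all higher, but it did not pass the test (0.92 ± 0.32, edgeR adjusted p = 0.0866), and it was called in DESeq2 (adjusted p = 0.0442), in a fit of the 8 libraries alone (adjusted p = 0.0222) and without control 2 and glucagon 3 (adjusted p = 0.0499). Hr changed by 0.90 ± 0.45 and Serpina7, thyroxine-binding globulin, by 1.19 ± 0.45, neither of them called, each with overlap. The intervals of Dio1, Thrsp and Klf9 leave room for differences in either direction, so their values do not show equal T3 action.

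Of the receptors, Thrb, the main form in liver, had 14.6, 15.2, 13 and 12.5 CPM in hybrid livers, against 19.99, 24.2, 20.5 and 23.8 CPM in T3 livers. The hybrid values were all lower (-0.67 ± 0.19, edgeR adjusted p = 0.0392), with 15 CPM in combination, 30.4 CPM in glucagon and 30.6 CPM in control livers. The Thrb call was lost when any 1 of the 8 libraries was left out (edgeR adjusted p 0.0565 to 0.113) and with hybrid 4 and T3 3 both left out (adjusted p = 0.111). It was also lost with thinned libraries (edgeR adjusted p = 0.063). Thra, the alpha form, had 13.8, 10.5, 10.2 and 9.71 CPM in hybrid livers, against 14.2, 9.96, 10.4 and 13.4 CPM in T3 livers and was not called (-0.12 ± 0.21, edgeR adjusted p = 0.791, 95% interval -0.55 to 0.32). In the list of thyroid hormone handling, 1 of 25 members rose (Slc16a10) and 1 fell (Thrb), 8% in all, and 2 and 3 fell in DESeq2 and the 8-library fit.

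**Figure D3:**
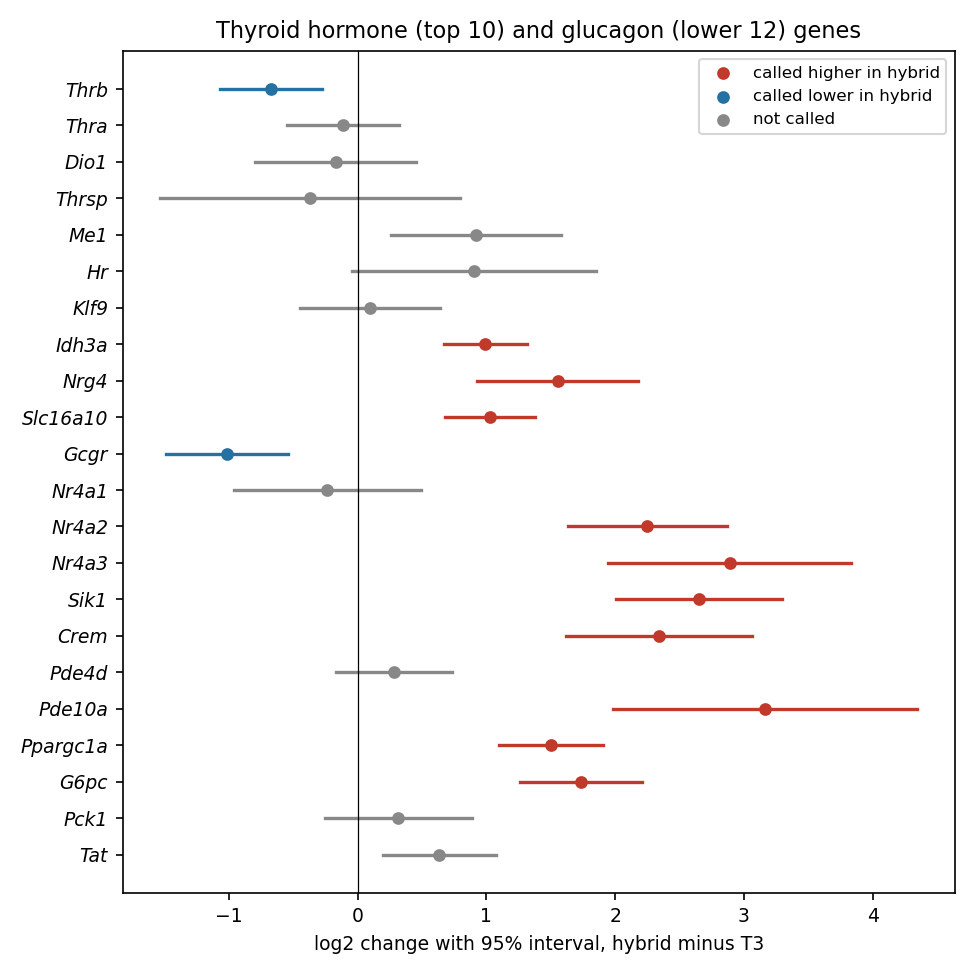
Log2 change with 95% interval, hybrid minus T3, of 10 genes of thyroid hormone action (top) and 12 genes of glucagon action (below), red where called higher, blue where called lower and grey where not called. Dio1, Thrsp and Klf9 straddle 0, while Nr4a3, Sik1, Crem and Pde10a lie wholly above 1.5.

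In cholesterol synthesis 4 of 26 members rose and 1 fell (19.2%, median change 0.18), and 2 rose without hybrid 2 or without T3 1. DESeq2 and the 8-library fit called 2 fallen. Pmvk, phosphomevalonate kinase, had 86.1, 79.8, 99.4 and 160.4 CPM in hybrid livers, against 22.8, 10.4, 14.9 and 8.63 CPM in T3 livers. All hybrid values were higher (2.90 ± 0.34, edgeR adjusted p = 4.6e-05), with 129 CPM in combination, 248 CPM in glucagon and 19.5 CPM in control livers. Lss, which closes the sterol rings, had 23.3, 30.6, 29.6 and 30.2 CPM in hybrid livers, against 15.9, 16.5, 15.5 and 11.3 CPM in T3 livers, and its T3 livers were below the other 16 libraries (0.94 ± 0.19, edgeR adjusted p = 0.0049). Fdft1, squalene synthase, had 4.62, 4.11, 5.86 and 4.2 CPM in hybrid livers, against 10.3, 12.2, 8.85 and 7.51 CPM in T3 livers, with the hybrid below the other 16 libraries (-1.05 ± 0.21, edgeR adjusted p = 0.00437). Ebp and Hsd17b7, of later steps, rose by 0.67 ± 0.15 and 0.92 ± 0.22. The Ebp call was lost without hybrid 2 or T3 1 (edgeR adjusted p 0.0507 to 0.0609). The Hsd17b7 call was lost without hybrid 2 or T3 1 (edgeR adjusted p 0.0611 to 0.0638) and with hybrid 4 and T3 3 both left out (adjusted p = 0.0675).

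Fatty acid and triglyceride synthesis had 2 of 32 members risen and 1 fallen (9.38%). These counts became 1 risen without hybrid 1, hybrid 3, T3 2 or T3 4, 4 risen and 3 fallen without control 2 and glucagon 3, 5 and 3 in DESeq2, and 7 and 3 in the 8-library fit. Acly, which makes cytosolic acetyl-CoA, had 338, 285, 257 and 204 CPM in hybrid livers, against 105, 102, 91.5 and 80.7 CPM in T3 livers. The T3 livers were lowest of all 20 libraries (1.52 ± 0.31, edgeR adjusted p = 0.00639), and glucagon livers averaged 1182 CPM. Elovl3, a fatty acid elongase with male-biased expression in mouse liver, had 13.1, 7.28, 10.2 and 23.2 CPM in hybrid livers, against 36.4, 58.5, 46.6 and 52.9 CPM in T3 livers, with the hybrid all lower (-1.86 ± 0.35, edgeR adjusted p = 0.00304). Scd1, the main desaturase, had 26476, 17022, 19554 and 9925 CPM in hybrid livers, against 14184, 6323, 6501 and 6532 CPM in T3 livers. The groups overlapped through T3 1 and it was not called (1.12 ± 0.34, edgeR adjusted p = 0.053), but it was called without hybrid 4 or T3 1 (edgeR adjusted p 0.0178 to 0.0267), in DESeq2 (adjusted p = 0.0119), in a fit of the 8 libraries alone (adjusted p = 0.0468) and without control 2 and glucagon 3 (adjusted p = 0.0358). Fasn, fatty acid synthase, had 1324, 647, 1274 and 1069 CPM in hybrid livers, against 2165, 827, 965 and 543 CPM in T3 livers, with overlap and no call (95% interval -1.08 to 0.95). Srebf1, a lipogenic transcription factor, had 318, 155, 320.3 and 202 CPM in hybrid livers, against 414, 439, 386 and 289.9 CPM in T3 livers. It was not called either (95% interval -1.35 to 0.11). Of 29 lipid droplet genes Plin4 and Plin5, which coat droplets, rose (6.9%, against 3.69% of all tested genes risen). The change was positive in 11 of the 29 and negative in 18, called or not. Plin4 had 51.3, 22.6, 56.8 and 52.9 CPM in hybrid livers, against 14, 6.55, 15.6 and 9.59 CPM in T3 livers, without overlap (2.00 ± 0.32, edgeR adjusted p = 0.000883). Plin5 had 89.5, 57.6, 75.9 and 60.4 CPM in hybrid livers, against 38.5, 36.6, 39.2 and 35.8 CPM in T3 livers, also without overlap (0.92 ± 0.16, edgeR adjusted p = 0.00204).

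No member of fatty acid oxidation and ketogenesis was called among 38 in edgeR, with 2 higher and 4 lower at an unadjusted p under 0.05 and 0 and 1 called by DESeq2. The 8-library fit called 2 risen. Cpt1a, which admits fatty acids to mitochondria, had 606, 539.6, 544 and 677 CPM in hybrid livers, against 757, 844, 604 and 868 CPM in T3 livers. The groups overlapped (-0.38 ± 0.14, edgeR adjusted p = 0.114, 95% interval -0.67 to -0.09), and it was called lower in DESeq2 (adjusted p = 0.0311) and with hybrid 4 and T3 3 both left out (adjusted p = 0.0444). In bile acid synthesis and transport 1 of 30 members fell (3.33%, median change -0.39). The count was 4 in DESeq2 and without control 2 and glucagon 3, 8 in the 8-library fit, which also called 1 risen, and 0 without any 1 of the 8 libraries but T3 3. Cyp7a1, which controls the rate of bile acid synthesis, had 241, 223, 208 and 125 CPM in hybrid livers, against 109, 208, 286 and 278 CPM in T3 livers and was not called (-0.14 ± 0.43, edgeR adjusted p = 0.882, 95% interval -1.03 to 0.75). Cyp8b1, which makes cholic acid, had 157, 85.1, 122 and 105 CPM in hybrid livers, against 336, 285, 170.3 and 218 CPM in T3 livers. It did not overlap but missed the test (-1.10 ± 0.39, edgeR adjusted p = 0.0959), and was called lower in DESeq2 (adjusted p = 0.0391), in a fit of the 8 libraries alone (adjusted p = 0.01) and without control 2 and glucagon 3 (adjusted p = 0.036). Hsd3b7, of the same pathway, fell (-0.78 ± 0.22), a call lost without hybrid 1, hybrid 2, hybrid 3, hybrid 4, T3 1, T3 2 or T3 4 (edgeR adjusted p 0.0583 to 0.131).

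The clock genes split in direction. In the core clock list 2 of 24 members rose and 3 fell (20.8%). DESeq2 called 4 and 5, and the 8-library fit 5 and 5. In the clock, Arntl and its partner drive genes through the E-box, and Per, Cry and Nr1d1 products feed back on it. Arntl (Bmal1, chr7:113207465-113314126) had 23.1, 28.9, 31.5 and 28.7 CPM in hybrid livers, against 6.01, 5.37, 2.95 and 5.75 CPM in T3 livers. Hybrid values were all higher (2.48 ± 0.28, edgeR adjusted p = 3.25e-05). Cry1 had 28.1, 29.5, 32.6 and 24.7 CPM in hybrid livers, against 10.9, 14.4, 11.3 and 16 CPM in T3 livers, again all higher in the hybrid (1.13 ± 0.24, edgeR adjusted p = 0.00831). Dbp (chr7:45705088-45710203), an output factor of the clock, had 71.6, 75.5, 93.5 and 87.3 CPM in hybrid livers, against 357, 567, 264 and 261 CPM in T3 livers. Here the hybrid values were all lower (-2.15 ± 0.35, edgeR adjusted p = 0.00102). Per3 had 23.2, 14.5, 22 and 21.5 CPM in hybrid livers, against 78.2, 65.9, 53.2 and 60.6 CPM in T3 livers, also all lower in the hybrid (-1.67 ± 0.31, edgeR adjusted p = 0.00298).

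Nr1d1, which represses Arntl, had 43.2, 53.1, 57 and 44 CPM in hybrid livers, against 182, 138, 70.8 and 99.2 CPM in T3 livers. It fell without overlap (-1.31 ± 0.29, edgeR adjusted p = 0.01), and this call was lost without T3 1 (edgeR adjusted p = 0.0508). Glucagon livers stood on the hybrid's side for Arntl, Dbp and Per3, with means of 40.5, 67.3 and 11.6 CPM, and control livers averaged 7.31, 371 and 33.4 CPM. The control mean lay within the T3 values for Dbp and just above them for Arntl. For Per3 it lay between the hybrid and T3 values. Glucagon and control means of Cry1 and Nr1d1, and combination means of these genes, are not given here. Since these transcripts cycle through the day and the hour of collection is not given, a difference of hour and a difference of treatment cannot be told apart. Of the 5 called members all had a promoter window, and Cry1 alone held CACGTG, the E-box, in capitals here.
Cry1, chr10:85185065-85185304, minus strand: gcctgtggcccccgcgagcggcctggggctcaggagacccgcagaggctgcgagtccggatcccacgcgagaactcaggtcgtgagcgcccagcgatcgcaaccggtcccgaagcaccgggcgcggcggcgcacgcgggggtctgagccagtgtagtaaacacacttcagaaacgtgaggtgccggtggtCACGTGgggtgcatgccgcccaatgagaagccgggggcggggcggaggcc
CACGTG was present in 10.7% of windows of genes that rose, 11.3% of those that fell and 9.78% of all tested genes.

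**Figure D4:**
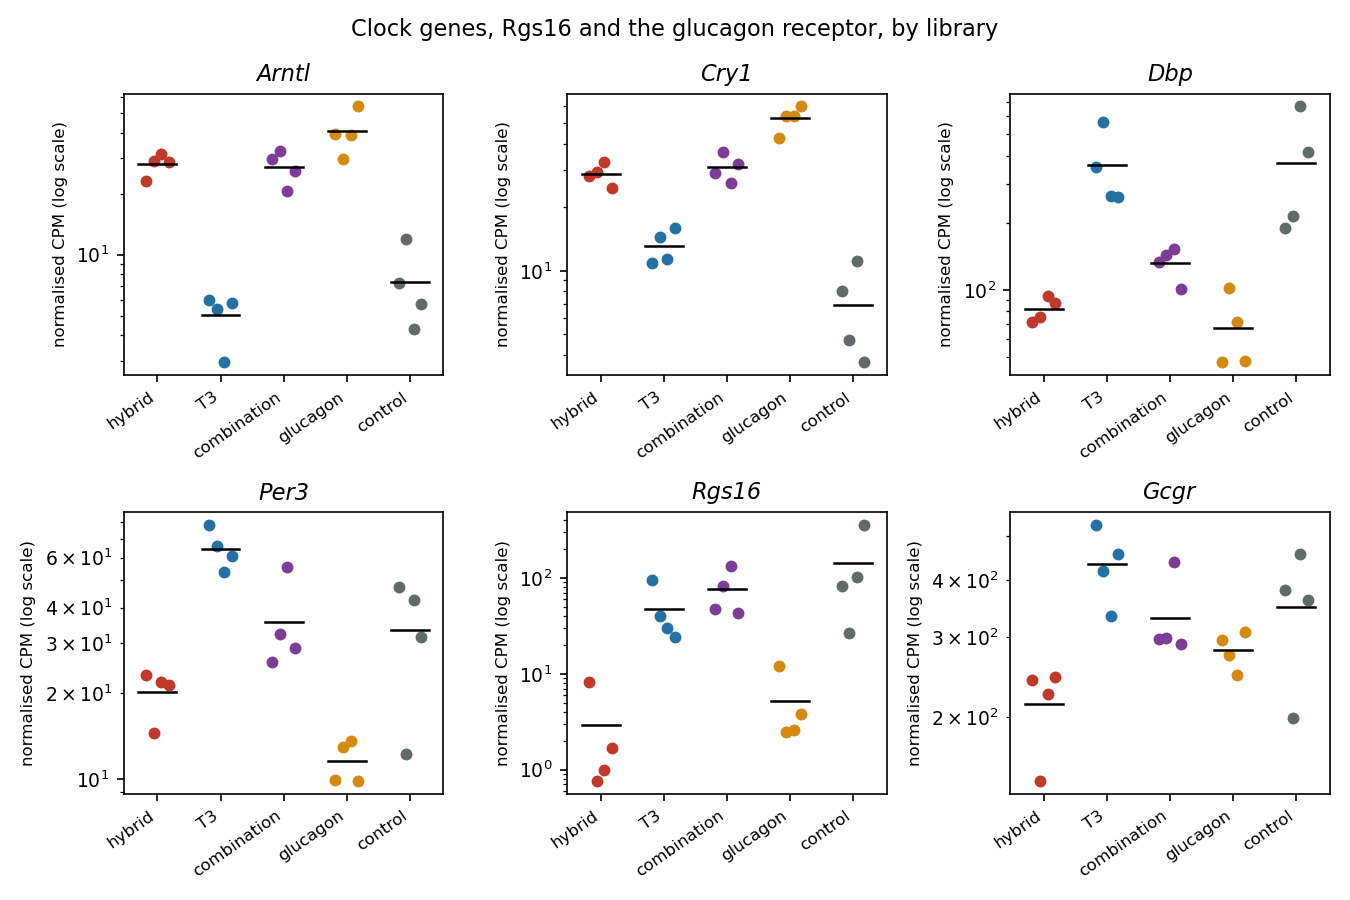
Normalised CPM (log scale) of 4 clock genes, Rgs16 and Gcgr in each of the 20 libraries by group, with points for libraries and bars for means. The hybrid points lie above the T3 points for Arntl and Cry1 and below them for Dbp, Per3, Rgs16 and Gcgr.

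Growth hormone, through its pattern of release, sets much of the difference between male and female mouse livers. Of 30 male-biased liver genes 3 fell and 0 rose (10%, median change -0.54), and of 25 female-biased genes 1 rose (4%, median 0.42). Without T3 2, 1 male-biased gene fell, and the 8-library fit called 6. The female-biased count was 0 without hybrid 2, T3 3, or hybrid 4 and T3 3, 2 without T3 1 and in DESeq2, and 3 in the 8-library fit. The male-biased falls were Elovl3, given above, Bcl6 and Keg1. Bcl6, a repressor of female-biased genes, had 22.9, 30.4, 24.5 and 28.4 CPM in hybrid livers, against 40.3, 162, 93.2 and 48.6 CPM in T3 livers, with the hybrid values all lower (-1.70 ± 0.40, edgeR adjusted p = 0.0141). Its call was lost without T3 2 (edgeR adjusted p = 0.0764) and with hybrid 4 and T3 3 both left out (adjusted p = 0.0559). Keg1 fell (-1.37 ± 0.32), a call lost without hybrid 1, hybrid 2 or T3 2 (edgeR adjusted p 0.0501 to 0.0609). Ntrk2, the female-biased gene that rose, had 201, 358, 257 and 268 CPM in hybrid livers, against 86.7, 124, 97.4 and 129.8 CPM in T3 livers (1.31 ± 0.33, edgeR adjusted p = 0.0211), and its call was lost without hybrid 2, T3 1 or T3 3 (edgeR adjusted p 0.0527 to 0.0794) and with hybrid 4 and T3 3 both left out (adjusted p = 0.0772). Cyp39a1, an oxysterol hydroxylase with female-biased expression, was not called (0.93 ± 0.29, edgeR adjusted p = 0.0598), but was called in DESeq2 (adjusted p = 0.0246), in a fit of the 8 libraries alone (adjusted p = 0.00547) and without control 2 and glucagon 3 (adjusted p = 0.0442). In the growth hormone and IGF list 1 of 25 members rose and 2 fell (12%), Bcl6 and Stat5b, while 0 fell without hybrid 4 and T3 3, 1 without any 1 of the 8 libraries but hybrid 1, and 4 in the 8-library fit.

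Lepr (chr4:101717404-101815352), the leptin receptor, was the member that rose, with 64.2, 95.4, 55.7 and 33.7 CPM in hybrid livers, against 6.99, 6.42, 6.72 and 12.5 CPM in T3 livers. The hybrid livers were all higher (2.94 ± 0.32, edgeR adjusted p = 1.79e-05), and the mean was 33.3 CPM in combination, 92.5 CPM in glucagon and 5.09 CPM in control livers. Igf1, the main endocrine product of growth hormone action in liver, had 779, 1181, 777 and 1039 CPM in hybrid livers, against 770.2, 856, 794 and 926 CPM in T3 livers. It overlapped and was not called (0.17 ± 0.17, edgeR adjusted p = 0.58, 95% interval -0.17 to 0.52). Stat5b, which relays growth hormone signals, fell (-0.61 ± 0.17), a call lost without hybrid 2, hybrid 3, hybrid 4, T3 1, T3 3 or T3 4 (edgeR adjusted p 0.0537 to 0.129) and with hybrid 4 and T3 3 both left out (adjusted p = 0.0868).

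In drug metabolism 4 of 56 members fell and 0 rose (7.14%, against 2.67% of all tested genes fallen, median change -0.34), and 1 fell without hybrid 4 and T3 3. The change was negative in 43 of the 56 and positive in 13, called or not. With 1 library left out, 2 or 3 fell, the 2 being without hybrid 1, hybrid 2, hybrid 4, T3 1 or T3 2. The 8-library fit called 9 fallen and the fit without control 2 and glucagon 3 called 7. Aox3, an aldehyde oxidase, had 86.6, 91.4, 88.6 and 86.6 CPM in hybrid livers, against 226, 350.2, 206 and 293 CPM in T3 livers, and the hybrid livers were below all 16 others (-1.61 ± 0.29, edgeR adjusted p = 0.00236). Aox1, of the same family, had 25.8, 11.6, 17.4 and 11.9 CPM in hybrid livers, against 38.9, 30.0, 40.3 and 25.7 CPM in T3 livers, with 1 hybrid value reaching the T3 range (-1.01 ± 0.21, edgeR adjusted p = 0.00713), and its call was lost with hybrid 4 and T3 3 both left out (adjusted p = 0.0659). Cyp2a5 and Cyp2e1, cytochromes P450, fell (-1.72 ± 0.48 and -1.27 ± 0.38). The Cyp2a5 call was lost without hybrid 1, hybrid 2, hybrid 4, T3 1 or T3 2 (edgeR adjusted p 0.0575 to 0.136) and with hybrid 4 and T3 3 both left out (adjusted p = 0.0939). That of Cyp2e1 was lost when any 1 of the 8 libraries was left out (edgeR adjusted p 0.0523 to 0.133) and with hybrid 4 and T3 3 both left out (adjusted p = 0.0593). Reads of close relatives such as the Cyp2a genes may be split between them, so the Cyp2a5 value is uncertain.

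Several ranked genes belong to none of these lists. Atp1b1 (chr1:164437109-164458355), the beta subunit of the sodium pump, had the smallest p of all genes, with 250.5, 307, 292 and 233 CPM in hybrid livers, against 44.1, 65.9, 63.1 and 53.4 CPM in T3 livers. The hybrid livers were all at least 3 times the highest T3 liver (2.26 ± 0.17, edgeR adjusted p = 3.37e-07), and the mean was 162 CPM in combination, 263 CPM in glucagon and 59.1 CPM in control livers. Emd and Cnnm2, singled out after their values were seen because their p values came next, each rose by 1.98 ± 0.17 (edgeR adjusted p = 1.12e-06). Emd encodes a protein of the inner nuclear membrane and had 47.5, 52.3, 56.3 and 83.7 CPM in hybrid livers, against 15.1, 13.2, 16.3 and 16.1 CPM in T3 livers. Cnnm2, a magnesium transport protein, had 34.7, 51.4, 47 and 49.6 CPM in hybrid livers, against 10.3, 13.2, 9.91 and 12.8 CPM in T3 livers. Neither overlapped.

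Lrrc58, a leucine-rich repeat protein, had 79.1, 131, 113 and 70.7 CPM in hybrid livers, against 18.5, 21.2, 17.8 and 24.4 CPM in T3 livers, with the T3 livers below all other libraries (2.27 ± 0.22, edgeR adjusted p = 5.09e-06). Cdc42ep5, an effector of the small GTPase Cdc42, had 33.6, 55.3, 39 and 59 CPM in hybrid livers, against 9.07, 6.42, 7.55 and 3.99 CPM in T3 livers, without overlap (2.78 ± 0.52, edgeR adjusted p = 0.0032). Akr1b7, an aldo-keto reductase that is also abundant in mouse adrenal, had 74.2, 36.5, 37.4 and 46.7 CPM in hybrid livers, against 7.6, 2.1, 19.2 and 2.08 CPM in T3 livers. It rose (2.63 ± 0.61, edgeR adjusted p = 0.0132), with T3 3 highest of the T3 livers and a change of 3.63 without it. Slc34a2, a sodium-phosphate cotransporter, had 22, 46, 56.8 and 47.2 CPM in hybrid livers, against 9.07, 11.1, 8.73 and 8.79 CPM in T3 livers (2.19 ± 0.53, edgeR adjusted p = 0.017), and its call was lost without hybrid 3 or T3 1 (edgeR adjusted p 0.0521 to 0.0565) and with hybrid 4 and T3 3 both left out (adjusted p = 0.0705).

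Among falls outside the lists, Arhgef10l, an exchange factor for small GTPases, had 12.5, 11.4, 13.8 and 10.9 CPM in hybrid livers, against 48.8, 56.6, 35.2 and 59 CPM in T3 livers. In the hybrid it was below all 16 others (-2.04 ± 0.25, edgeR adjusted p = 5.26e-05). B3galt1, a galactosyltransferase, had 6.31, 12.9, 2.35 and 4.01 CPM in hybrid livers, against 30.2, 42.1, 23.1 and 95.4 CPM in T3 livers, all lower in the hybrid (-2.87 ± 0.53, edgeR adjusted p = 0.00247), and its change was -3.46 without hybrid 2. Aatk, a protein kinase, had 12.4, 9.31, 18.7 and 17.5 CPM in hybrid livers, against 53.7, 65, 39.4 and 60.4 CPM in T3 livers, without overlap (-1.92 ± 0.43, edgeR adjusted p = 0.01). Ttbk1, a kinase of tau and tubulin, had 8.92, 11.9, 16.5 and 13.3 CPM in hybrid livers, against 38.9, 46.4, 39 and 46.8 CPM in T3 livers. Its T3 livers exceeded all 16 other libraries (-1.76 ± 0.32, edgeR adjusted p = 0.00207).

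BC024386 had 131, 72.5, 132 and 74.3 CPM in hybrid livers, against 354, 404, 262 and 372 CPM in T3 livers, also lower without overlap (-1.76 ± 0.34, edgeR adjusted p = 0.00387). Inmt, a methyltransferase, had 40.7, 28.4, 49.8 and 49.5 CPM in hybrid livers, against 88.4, 266, 109 and 179 CPM in T3 livers. The hybrid values were below all 16 others (-1.93 ± 0.49, edgeR adjusted p = 0.0214), and glucagon livers averaged 1904 CPM. Car3, a carbonic anhydrase, had 80.3, 83.1, 242 and 287 CPM in hybrid livers, against 384, 1277, 402 and 612 CPM in T3 livers, with the hybrid again below all 16 others (-1.95 ± 0.49, edgeR adjusted p = 0.0218) and glucagon livers at 5128 CPM. The Inmt call was lost without hybrid 1, hybrid 2 or T3 2 (edgeR adjusted p 0.0547 to 0.0854), and the Car3 call without hybrid 1, hybrid 2 or T3 2 (edgeR adjusted p 0.0649 to 0.102). Star, an adrenal gene of T3 3, was also called lower (-3.51 ± 0.93, edgeR adjusted p = 0.028), and so was Cyp21a1 (-4.79 ± 1.37, edgeR adjusted p = 0.042). Without T3 3 they were not called, with changes of 0.0749 and -0.55. The Star call was also lost without hybrid 1, hybrid 2, hybrid 3 or hybrid 4 (edgeR adjusted p 0.0619 to 0.1) and in a fit of the 8 libraries alone (adjusted p = 0.0596). The Cyp21a1 call was lost without hybrid 1, hybrid 2, hybrid 3 or T3 3 (edgeR adjusted p 0.105 to 0.842) and with hybrid 4 and T3 3 both left out (adjusted p = 0.453).

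**Figure D5:**
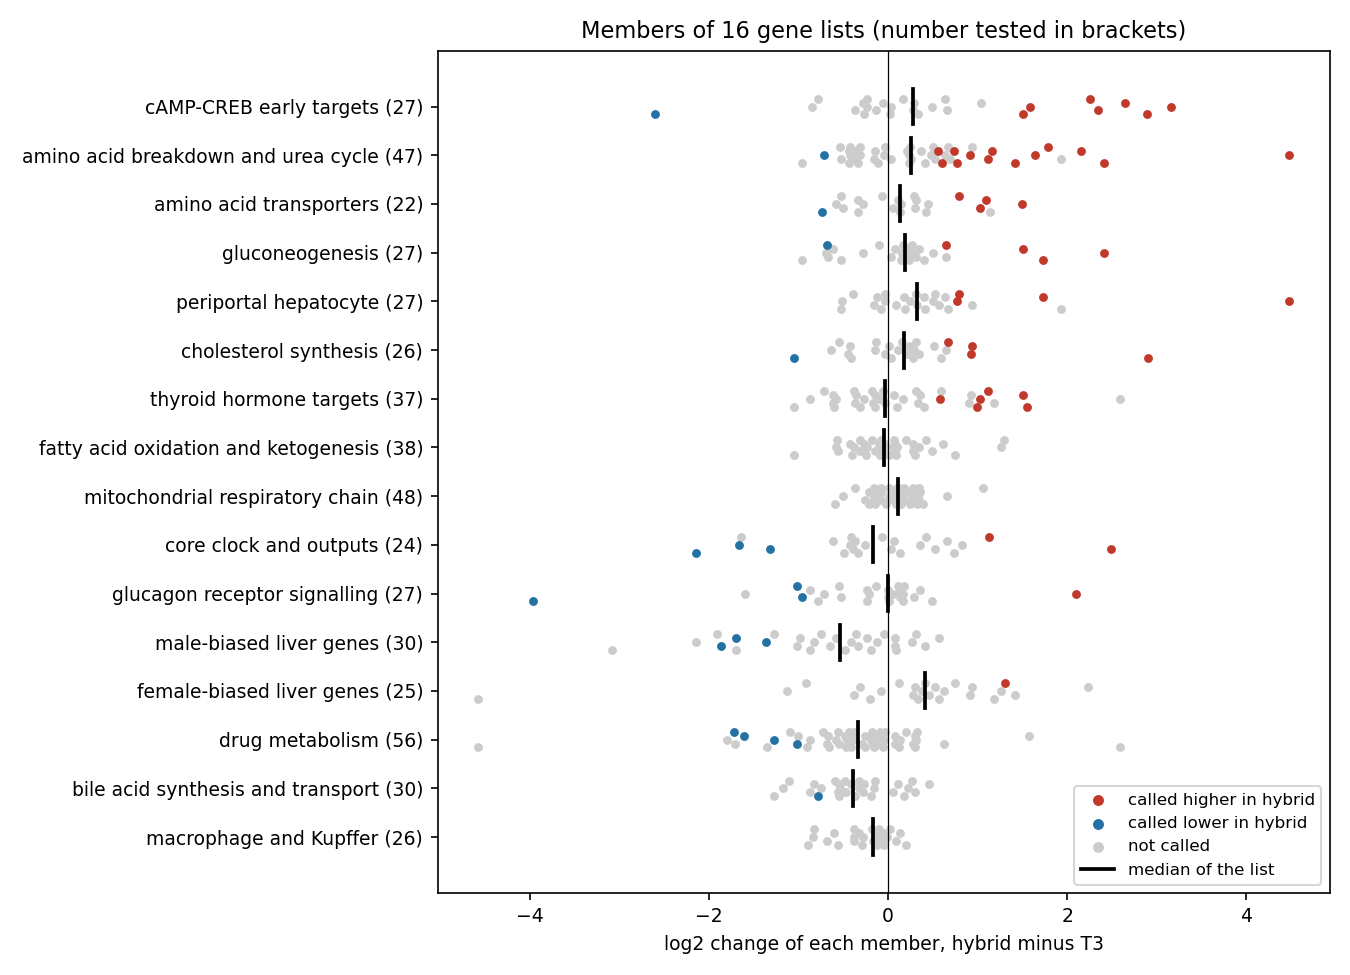
Log2 change (hybrid minus T3) of every tested member of 16 gene lists, red where called higher in the hybrid, blue where called lower and grey otherwise, with a black bar at the list's median. The first 7 lists from the top hold 4 to 13 red points each, and the medians run from -0.54 for male-biased genes to 0.42 for female-biased genes.

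The remaining pathway lists with a call had 3.03% to 14.8% of members called. In the tricarboxylic acid cycle 3 of 25 members rose (12%), among periportal hepatocyte genes 4 of 27 rose (14.8%, 2 without hybrid 1), and among pericentral genes 1 of 27 rose and 1 fell (7.41%). DESeq2 called 7 periportal genes risen. The tricarboxylic acid cycle count was 2 with any 1 of the 8 libraries left out, 2 without hybrid 4 and T3 3, and 5 in the 8-library fit. The pericentral counts were both 0 without hybrid 4 and T3 3 and both 3 in the 8-library fit. The cell cycle list had 2 of 34 risen (5.88%) with a median of 0.60, namely Rrm1 and Rrm2 of ribonucleotide reductase (1.30 ± 0.31 and 1.24 ± 0.37). The Rrm1 call was lost without hybrid 2, T3 1 or T3 2 (edgeR adjusted p 0.0551 to 0.0661), and the Rrm2 call without hybrid 2, hybrid 3, hybrid 4, T3 1, T3 2 or T3 4 (edgeR adjusted p 0.0609 to 0.158). The cell cycle count was 0 without hybrid 2, T3 1 or T3 2, 5 without control 2 and glucagon 3 and 7 in the 8-library fit. Counts of risen and fallen members were 2 and 1 of 30 (10%) in insulin signalling, 1 and 2 of 28 (10.7%) in the unfolded protein response, 2 and 1 of 28 (10.7%) in the ATF4 response and 2 and 1 of 27 (11.1%) in the NRF2 list. They were 0 and 1 of 33 (3.03%) in acute phase genes, 1 and 0 of 33 (3.03%) in hepatokines, 0 and 2 of 29 (6.9%) in metal handling and 0 and 2 of 30 (6.67%) in lipoprotein genes. Without hybrid 4 and T3 3 the counts were 0 and 1 in the unfolded protein response, 2 and 0 in the NRF2 list, 0 and 0 in acute phase genes and 0 and 1 in metal handling. In the 8-library fit they were 4 and 2, 3 and 2, 0 and 2, and 0 and 3, and 4 and 2 in hepatokines, 4 and 2 in insulin signalling and 0 and 4 in lipoprotein genes. Several of these small counts rested on 1 library, with 0 lipoprotein genes fallen without hybrid 2 or T3 1 and 0 of the unfolded protein response fallen without hybrid 2 or T3 2. The insulin list had 1 risen without hybrid 2, hybrid 3, T3 1 or T3 3, the NRF2 list 0 risen without hybrid 1, hybrid 2, hybrid 3, T3 1, T3 2 or T3 4, and the metal list 1 fallen without any library but T3 3. The unfolded protein response had 0 risen without any library but hybrid 4 or T3 4, the ATF4 response 0 fallen without hybrid 2 or T3 1, acute phase genes 0 fallen without hybrid 3, hybrid 4 or T3 4, and the NRF2 list 0 fallen without any library but hybrid 3 or T3 3. No member was called among 48 respiratory chain, 37 interferon-induced, 27 ribosomal or 34 proteasome genes in the reported edgeR fit or DESeq2. The 8-library fit called Atp5h of the respiratory chain higher (adjusted p = 0.0372), Tap1 of the interferon genes lower (adjusted p = 0.04), Rps3 of the ribosome lower (adjusted p = 0.0378), and of the proteasome Psmd7 higher (adjusted p = 0.0334) and Psmb1 lower (adjusted p = 0.0265), besides 1 respiratory chain gene lower. At an unadjusted p under 0.05, 4, 0, 0 and 3 of these were higher and 1, 2, 4 and 1 lower. Fgf21, a fasting hepatokine, had 12.2, 25.2, 36 and 43.3 CPM in hybrid livers, against 60.2, 94.4, 48.4 and 38.7 CPM in T3 livers and was not called (95% interval -2.51 to 0.40).

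Among markers of other cell types, 0 of 26 macrophage and Kupffer genes were called in the reported edgeR fit, with 4 lower at an unadjusted p under 0.05 and 1 lower in DESeq2. The 8-library fit called 3 lower, among them C1qc (adjusted p = 0.0189) and H2-Ab1 (adjusted p = 0.0225). Their summed level was 2051 to 2686 CPM in hybrid and 2459 to 3284 CPM in T3 livers, and 22 of the 26 had a negative change (median -0.17). Endothelial genes had 2 of 22 risen, Vwf and Flt1, with summed levels of 1200.3 to 1737 CPM in hybrid and 931 to 1458 CPM in T3 livers. Their count was 1 without any 1 of the 8 libraries but T3 1, 1 without hybrid 4 and T3 3, and 4 in the 8-library fit. Vwf, a clotting protein of endothelium, had 50.2, 33.7, 39.1 and 67.4 CPM in hybrid livers, against 16.8, 10.6, 23.1 and 8.63 CPM in T3 livers, without overlap (1.68 ± 0.34, edgeR adjusted p = 0.00494). Flt1, a receptor of endothelial growth factors, had 13.2, 14.5, 11.9 and 13.9 CPM in hybrid livers, against 9.93, 8.91, 8.26 and 7.19 CPM in T3 livers (0.64 ± 0.18, edgeR adjusted p = 0.035), and its call was lost without hybrid 1, hybrid 2, hybrid 3, hybrid 4, T3 2, T3 3 or T3 4 (edgeR adjusted p 0.054 to 0.104) and with hybrid 4 and T3 3 both left out (adjusted p = 0.115) and with thinned libraries (adjusted p = 0.0697). Of 23 hepatocyte identity genes Asgr2, a subunit of the asialoglycoprotein receptor, fell (-0.72 ± 0.17), and the 8-library fit called 5 fallen. Of 5 erythroid genes 2 fell, at levels of at most 6.02 CPM, and 0 were called without hybrid 4 and T3 3. No member of the lymphocyte and granulocyte (15), stellate cell and fibroblast (25), cholangiocyte (13), skeletal muscle (20) or adipocyte and pancreas (7) lists was called in edgeR, although 19 of the 20 muscle genes had a positive change (median 2.93), with hybrid 4 included. DESeq2 called 1 stellate cell gene lower and the 8-library fit 3, neither called any of the others, and 1, 3, 2, 0 and 0 members had an unadjusted p under 0.05. For DESeq2, not called here includes any member without an adjusted p. The part of these cells in the results above was not tested.

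The other groups show on which side the 2 groups lay, as a description. Among genes that rose, the T3 livers fell outside the range of all 16 other libraries in 43 and the hybrid livers in 20. Among genes that fell, the counts were 21 for T3 and 35 for hybrid. Over all tested genes 0.937% had T3 outside and 0.728% had hybrid outside. The hybrid mean lay within the range of the combination livers for 308 of the 821 called genes (37.5%), against 62.5% of all tested genes, and the T3 mean for 109 (13.3%), against 57.4% of all. Called genes were picked for a difference between hybrid and T3, so these counts and shares are not like for like with those of all tested genes. On the first 2 principal components of all 20 libraries, which held 31.2% and 18.2% of the variance, hybrid and T3 libraries shared the positive side of the first. They separated on the second, where hybrid ran from -21.3 to -11.2 and T3 from 8.78 to 12.3.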

How the data were processed

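Total RNA from the livers was sequenced with SOLiD barcodes, per the labels, and the authors deposited whole-number read counts for gene symbols. The submitters' processing notes name HTSeq and the mm10 genome. The aligner, the annotation and whether strand was used in counting are not stated, and reads of overlapping genes or close relatives cannot be assigned with certainty. The deposited counts covered 13319 symbols, of which 12113 matched a GENCODE M21 name and 12 had been turned into dates. Every symbol had at least 20 counts in some library. Each library is 1 mouse. The SE of a change was derived from the test, as the absolute log2 change over the square root of its F statistic. The 95% intervals add and subtract this SE times a t quantile, so both are approximate.

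Counts were analysed in R 4.3.3 with edgeR 4.0.16 (TMM factors, filterByExpr with a minimum count of 10 and total of 15, quasi-likelihood test). All 20 libraries entered 1 fit of 5 group means, whose common coefficient of biological variation was 27.8%, and p was adjusted by Benjamini-Hochberg over all 12907 genes. Within each group alone this coefficient was 22.6% in hybrid, 19.2% in T3, 18.9% in combination, 25.9% in glucagon and 43.2% in control libraries. The tested contrast was hybrid minus T3. Replicate numbers follow lanes 1 to 4 in the other 4 groups, while all T3 libraries are of lane 5, and no label says that they pair mice. The deviations of same-numbered hybrid and T3 libraries correlated at 0.342, 0.008, -0.136 and -0.016, so they were not paired.

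The 43 lists, the named genes and this comparison were chosen with earlier results of these data known. Named genes were the 12 ranked highest and lowest called genes of at least 20 CPM without overlap, the 4 members of smallest p in the 10 lists with the highest share called, the 2 of smallest p in each other list, and a panel of receptors and standard targets. Another 19, mostly called list members, were named after their values were seen, and so were the windows holding TGACG or CACGTG. Some of the genes so chosen are not reported here. RefSeq windows are of GRCm38.p6 and gene positions of GENCODE M21 on GRCm38. Alternatives were RLE factors, no filter, DESeq2 1.42.0, the 8 libraries alone, a replicate block, thinning to the shallowest library and leaving out libraries.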

Additional observations from a re-analysis of the deposited data

Results flagged for a closer look

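Within each group of 4, a library was marked where its gap to the nearest other took up most of the group's range (Dixon's criterion). Of 308 groups examined 27 were marked, where chance gives about 1 in 20. All values are normalised CPM, except the marker sums, which are per library total.

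Several of the marked genes are among the rises reported above. Lepr reached 12.5 in T3 4, against 6.42 to 6.99 in the other T3 livers. Sik1 was lowest in T3 1, at 76.6 against 144 to 156. Nr4a2 was highest in hybrid 3, at 7.13 against 5.22 to 5.41. Adcy1 was highest in T3 4, at 3.04 against 1.18 to 1.30. Ppp1r3g was highest in T3 1, at 7.73 against 1.53 to 2.56. Plin4 was lowest in hybrid 2, at 22.6 against 51.3 to 56.8, and Lss lowest in hybrid 1, at 23.3 against 29.6 to 30.6. Slc34a2 was highest in T3 2, at 11.1 against 8.73 to 9.07. Oat was lowest in T3 3, at 134 against 175 to 179.8. Pappa2, a protease that frees IGF, was lowest in T3 1, at 0.245 against 0.786 to 0.826, all levels of few counts.

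Among genes that fell, Rgs16 was highest in hybrid 1, at 8.21 against 0.767 to 1.68. Steap3, a metalloreductase, was highest in hybrid 1, at 22.8 against 18.1 to 18.6. Hsd3b7 was lowest in hybrid 2, at 194 against 251 to 259. Xbp1, a factor of the unfolded protein response, was highest in hybrid 4, at 503 against 310.4 to 337. Klf1, an erythroid factor, was highest in hybrid 3, at 2.26 against 1.52 to 1.64.

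Uncalled genes were marked too. Scd1 was highest in T3 1, at 14184 against 6323 to 6532. C1qc, of macrophages, was highest in T3 1, at 417 against 292 to 308. Psmb1, of the proteasome, was lowest in T3 2, at 54.7 against 62.1 to 63.2. Inhbe, of the activin family, was lowest in hybrid 1, at 36.8 against 49.9 to 51.9, and Serpina7 highest in hybrid 2, at 9.69 against 2.07 to 3.36.

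The remaining marks concern transcripts of other tissues. In T3 3, Star reached 83.4 against 0.959 to 2.45 and Cyp21a1 30.2 against 0.131 to 0.799. In hybrid 4, the muscle genes Acta1 and Atp2a1 reached 254 against 2.30 to 3.34 and 65.9 against 0.329 to 1.53. The summed muscle markers reached 802 in hybrid 4, against 13.9 to 25.6 in the other hybrid livers, and 78.0 in T3 4, against 21.6 to 30.6 in the other T3 livers. Lymphocyte and granulocyte markers summed to 51.4 in hybrid 2, against 32.1 to 35.1 in the other hybrid livers.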

How the results depend on the processing

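The count of 821 called genes was 802 with RLE factors, 820 without a filter, 797 with all libraries thinned to the shallowest and 1175 in DESeq2, which called 545 lower. A fit of the 8 libraries alone called 1562 genes, 809 higher and 753 lower, and higher calls were then 51.8% of all, against 58% in the reported fit. The fit without control 2 and glucagon 3, whose muscle markers summed to 1121 and 3395 CPM, called 998. Under the replicate block 798 genes were called, 735 of them among the 821, and the named genes Mat1a (adjusted p = 0.0557), Pkig (0.0591), Cyp2e1 (0.0514), Hfe2 (0.0572), Rrm2 (0.0692), Star (0.109) and Cyp21a1 (0.126) lost their call while Rps14 gained one (0.0392); replicate 1 alone correlated best with its own number, so the block is a setting and no pairing. With 1 library left out at a time, 406 to 708 genes were called, 251 to 438 higher and 133 to 328 lower, with 1 fewer sample in each fit. No gene called in both fits had opposite signs under any of these alternatives. Star ran from -3.91 to 0.0749 with 1 library left out, reversing without T3 3, and was 0.0982 without hybrid 4 and T3 3, a pair chosen after seeing the data. Thinning ended 5 named calls, those of Flt1 (edgeR adjusted p = 0.0697), Thrb (0.063), Gpx4 (0.0991), Prodh2 (0.0564) and Pkig (0.0638). The causes of these changes were not tested. Depth of 6091917 to 8791923 counts in the T3 and the shallowest hybrid livers, and 4 mice a group, limit what could be detected among low genes.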

Other observations

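Adh7, an alcohol dehydrogenase of the upper digestive tract, had the fourth smallest p of all genes, with 30.9, 27.6, 22.4 and 40.8 CPM in hybrid livers, against 2.7, 4.06, 4.95 and 5.75 CPM in T3 livers. The groups did not overlap (2.81 ± 0.26, edgeR adjusted p = 3.19e-06), and it averaged 26.3 CPM in combination, 68 CPM in glucagon and 3.09 CPM in control livers. Pappa2, which releases IGF from its binding protein, had 6.36, 24.5, 11.9 and 27.3 CPM in hybrid livers, against 0.245, 0.786, 0.826 and 0.799 CPM in T3 livers, all higher in the hybrid (4.71 ± 0.65, edgeR adjusted p = 0.000211), with 4.99 CPM in combination, 3.57 CPM in glucagon and 0.213 CPM in control livers. The T3 levels of Pappa2 rest on few counts, since 3 counts are 0.375 CPM in T3 1 and 0.49 CPM in T3 4. Its change is therefore uncertain in size. Both genes were chosen after their values were seen and belong to none of the lists.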
